A study of Mus musculus with 16 samples.

Results

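The genes described here are the glutamate receptor and GABA-A receptor subunit genes of the mouse brain. They were taken from the count table by symbol: names starting Gria, Grid, Grik or Grin and a digit, the metabotropic receptors named Grm and a digit, and the Gabr genes of the alpha, beta, gamma, delta, epsilon, pi, theta and rho subunits. The rule found 47 of 55487 genes. Of these, 45 encode receptor subunits, namely 18 subunits of ionotropic glutamate receptors, 8 metabotropic glutamate receptors and 19 GABA-A subunits. The other two are caught by their names alone: Grid2ip encodes delphilin, a synaptic scaffold protein, and Grin1os is an antisense RNA of Grin1.

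RNA was sequenced from bulk brain of 16 female mice on a C57BL/6J background in 4 groups of 4. CETPtg mice carry a human transgene for CETP, the cholesteryl ester transfer protein that mice lack, under its own promoter. APPtg/CETPtg mice carry in addition a human APP751 transgene with the Swedish and Indiana mutations, driven in neurons by the Thy1 promoter, so both genotypes express CETP and the comparison of genotypes asks what the APP transgene adds. Both transgenes were heterozygous. All mice ate a diet with 1% cholesterol from 11 weeks of age and were injected into the peritoneum for 11 weeks with vehicle or with evacetrapib, a CETP inhibitor, at 30 mg/kg per day. The 4 groups are CETPtg on vehicle, CETPtg on evacetrapib, APPtg/CETPtg on vehicle and APPtg/CETPtg on evacetrapib, and each library is 1 mouse. No group lacks the CETP transgene.

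Glutamate is the main excitatory transmitter of the brain. AMPA receptors, built of the Gria subunits, carry most of the fast current, and NMDA receptors pair the obligatory Grin1 subunit with Grin2 or Grin3 subunits and admit calcium. Kainate receptors (Grik) modulate release and excitability, the delta receptors (Grid) hold synapses together through cerebellin and neurexin, and the metabotropic receptors (Grm) signal through G proteins. GABA-A receptors are chloride channels built mostly of alpha, beta and gamma subunits, and the subunits chosen set where the receptor sits and how long its current lasts.

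Sequencing gave 21391335 to 55453789 reads on genes per mouse. The CETPtg libraries held 28626139 to 46800787 and the APPtg/CETPtg libraries 21391335 to 27398792, apart from mouse S8 with 55453789. Thy1, the gene whose promoter drives the APP transgene, measured 684 to 807 CPM, counts scaled to a library of 1000000, in CETPtg and 865 to 2063 in APPtg/CETPtg mice, with no overlap of the genotypes. The 2 genotypes share 0 columns of the index plate and the treatments share 0 rows, so a plate effect and the group cannot be told apart. Gabra6, the alpha6 subunit of cerebellar granule cells, had at most 4 reads in any mouse. Of 13 genes of a cerebellum marker list 12 reached the count needed for testing, and the list summed to 205 to 266 CPM. The list is not exclusive to the cerebellum, as its gene Pvalb is also in the interneuron list. The study's methods name the cerebrum as the tissue frozen from mice that were not perfused. Whether the libraries held cerebellum was not tested.

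The subunits spanned a wide range of levels. Levels between genes are given as CPM per kilobase of exon, using the union of all annotated exons, which lowers the value of genes with many alternative exons. Gria1 had the highest level at 75.7 ± 3.58 (SD, n = 16), followed by Grin1 at 73.6 ± 3.04 and by Grik5, the GluK5 kainate subunit, at 62.3 ± 4.90. Gria1 exceeded Grin1 in 11 of the 16 mice, so their order lay within the spread between mice, whereas Grin1 exceeded Grik5 in all 16. The order also depends on the length used. The exons of Grin1 cover 9700 bases but its longest transcript 4276, against 6043 and 5546 for Gria1. In CPM, without regard to length, Grin1 was higher, at 714 against 458.

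A single subunit led several classes. Gria1 made up 49.2% ± 1.57 (SD, n = 16 mice) of the summed AMPA level, Grin1 62.4% ± 1.94 of the NMDA level and Grik5 66.2% ± 1.72 of the kainate level. Such shares depend on the exon lengths used: Gria2 had 591 CPM over 15548 bases, against 458 over 6043 for Gria1. Grm3 led the group II metabotropic receptors with 66.8% ± 3.05. Grid1, a delta receptor, reached 14.4 ± 0.994 CPM per kilobase and Grm5, a group I metabotropic receptor, 18.7 ± 1.62. In group III, Grm4 and Grm7 shared the level almost evenly, at 47.7% ± 4.42 and 44.4% ± 4.10, and Grm4 was the higher in 10 of 16 mice.

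Among GABA-A subunits, the alpha subunit Gabra3 measured 32.0 ± 1.40 CPM per kilobase (SD, n = 16) and the beta subunit Gabrb2 21.7 ± 1.99. Gabrd, the delta subunit of extrasynaptic receptors, reached 28.4 ± 2.92, and Gabra3 was above it in 13 of the 16 mice. The rho subunits, best known from the retina, were led by Gabrr2 at 0.382 ± 0.130.

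Some members were close to absent. Gabra6, Gabrp, Gabrr1, Gabrr3 and Grm6 did not reach 10 reads in 4 mice and were not tested. Grm6, the receptor of retinal bipolar cells, and Gabrp, the pi subunit, had at most 1 read in any mouse. The remaining 42 members were tested among 18609 genes.

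**Figure D1:**
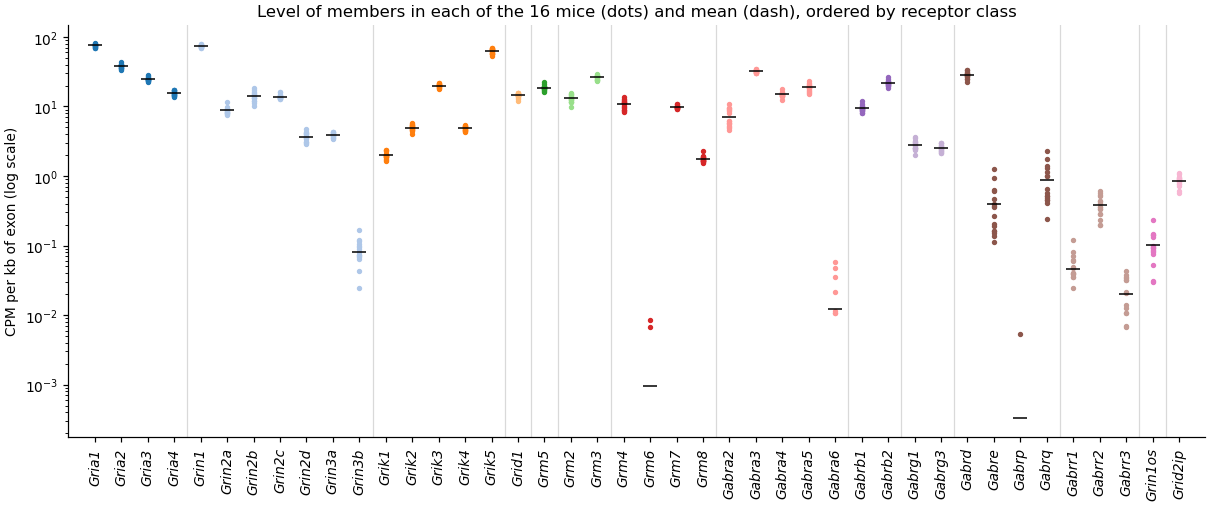
Level of 42 of the 47 members in each of 16 mice (dots, CPM per kilobase of exon, log scale) with the mean over mice (dash), ordered and coloured by receptor class; mice with 0 reads for a gene have no dot. Gria1, Grin1 and Grik5 sit highest, and Gabrp and Grm6 sit lowest.

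Several subunits of both receptor families were lower in mice with the APP transgene. Over all mice, 11 of 42 members tested were lower in APPtg/CETPtg than in CETPtg mice by the edgeR quasi-likelihood test, with a Benjamini-Hochberg adjusted p up to 0.05 and a difference of 5% or more, where 8.38% of all genes tested were called lower. None was called higher, where 9.35% of all genes were. Among the members called were Grin2a and Grin2b of the NMDA receptor, Gria4 of the AMPA receptor, Grik2 of the kainate receptor, the metabotropic receptor Grm5, and the GABA-A subunits Gabrb1, Gabrb2 and Gabrg3. In all, 36 of the 42 members lay below 0, with a median log2 fold change of −0.12 against 0.00459 over all genes tested.

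The changes were small, from 8.82% lower for Gria4 to 21.1% lower for Grin2b. In bulk tissue, fewer cells that carry a transcript and less of it in each cell cannot be told apart. Of the 10 neuronal marker genes, 2 were called higher (Stmn2 and Syp) and 1 lower (Nefm), with a median log2 fold change of −0.02, while of 8 oligodendrocyte genes 4 were called lower (among them Cldn11, Mbp and Mobp), with a median of −0.22. The summed level of the neuronal list overlapped between genotypes, at 8917 to 10169 CPM in CETPtg and 8802 to 9569 in APPtg/CETPtg mice. The oligodendrocyte genes summed to 4348 to 5238 CPM in the CETPtg group and to 3439 to 4702 with the APP transgene. Calls in all of these lists stand against the 8.38% of all genes tested that were called lower and the 9.35% called higher. Of 9 thalamus genes 4 were called lower and 1 higher, with a median of −0.16, and their sum did not overlap between genotypes, at 113 to 133 CPM in CETPtg and 94.1 to 112 in APPtg/CETPtg mice. Of 8 astrocyte genes 2 were called lower (sums of 867 to 928 and 709 to 942 CPM), of 8 microglia genes 2 higher (322 to 370.5 and 331 to 401 CPM), and of 10 interneuron genes 3 higher. Lower calls were also made for 2 of 10 cortex genes (with 2 higher), 2 of 10 hippocampus genes and 2 of 11 striatum genes. The cerebellum list had 1 of 12 called lower, the endothelial list 1 of 8 and the oligodendrocyte precursor list 1 of 7. None was called lower in the olfactory bulb, hypothalamus and midbrain and hindbrain lists. Median log2 fold changes were 0.001 for astrocytes, 0.00785 for cortex, 0.0185 for endothelial cells and 0.13 for hippocampus. They were −0.09 for striatum and cerebellum, −0.08 for oligodendrocyte precursors, 0.15 for microglia and 0.04 for interneurons. The part of these markers in the result was not tested.

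**Figure D2:**
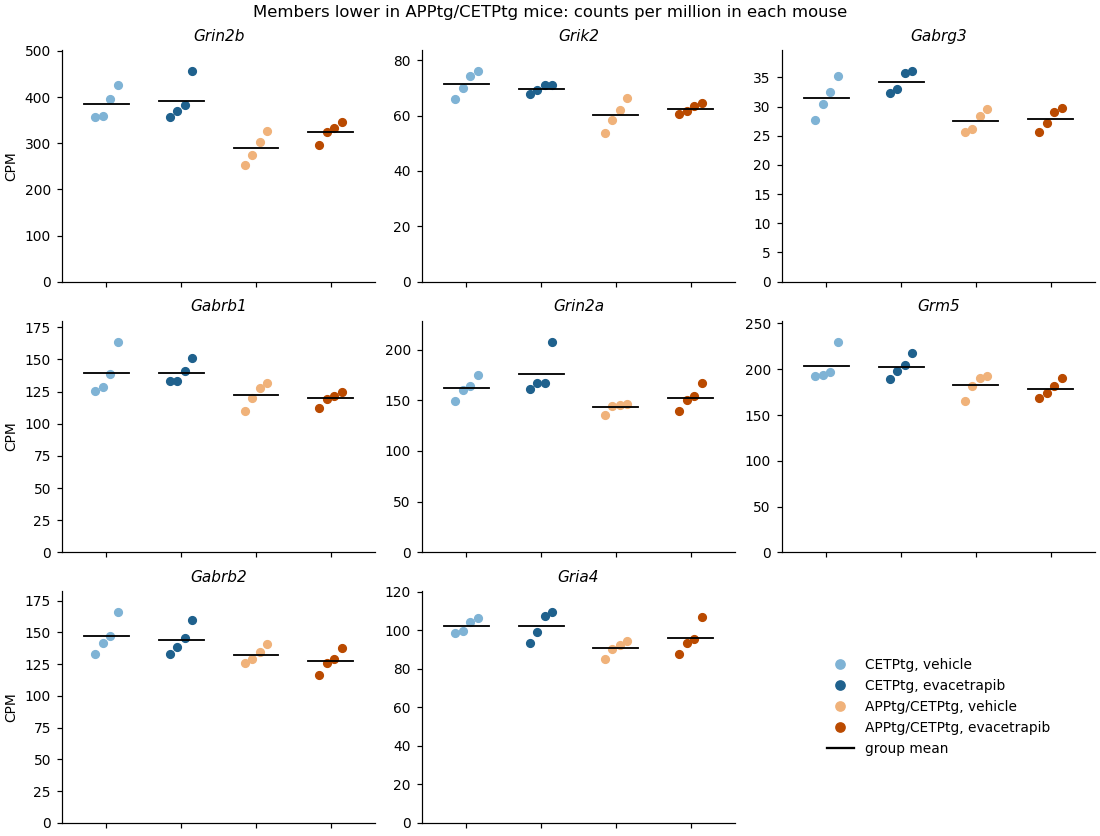
CPM of 8 of the 11 members called lower in APPtg/CETPtg mice, in order of adjusted p, with each mouse as a point and each group mean as a bar; the CPM axes start at 0. For Grin2b every APPtg/CETPtg mouse lies below every CETPtg mouse, and for the other members plotted the genotypes overlap.

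The clearest difference of a single member was that of Grin2b. It is 1 of 7 NMDA genes, of which 2 were called lower, with a class median log2 fold change of −0.03. Grin2b, the GluN2B subunit that dominates young and extrasynaptic NMDA receptors, measured 358, 358, 396 and 427 CPM in CETPtg mice on vehicle and 356, 371, 383 and 456 in CETPtg mice on evacetrapib. In APPtg/CETPtg mice it measured 253, 274, 302 and 326 CPM on vehicle and 296, 325, 333 and 346 on evacetrapib. No mouse of one genotype reached the range of the other. Grin2b was the only member whose genotypes did not overlap, where 1.3% of all genes tested were lower in APPtg/CETPtg without overlap. Its log2 fold change was −0.34 ± 0.06 (SE), with an adjusted p of 0.000777.

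Grin2a measured 149, 159.7, 164 and 175 CPM in CETPtg mice on vehicle and 161, 167, 167 and 208 on evacetrapib, against 135, 144, 145 and 146 in APPtg/CETPtg mice on vehicle and 139.5, 149.8, 155 and 167 on evacetrapib. Grin2a encodes GluN2A, the subunit of mature synapses. It fell from 169 ± 17.3 CPM (SD, n = 8) to 148 ± 9.65, a log2 fold change of −0.19 ± 0.05 (SE, adjusted p = 0.0112). In 5 APPtg/CETPtg mice Grin2a was below every CETPtg mouse. Grin1, the subunit that every NMDA receptor needs, measured 722 ± 29.2 CPM without and 707 ± 29.6 with the APP transgene and did not pass the test (log2 fold change −0.03 ± 0.03 (SE), adjusted p = 0.559). Grin2d, found in interneurons and brainstem, had a fitted change of similar size to Grin2a, −0.21 ± 0.08 (SE), but missed the threshold at an adjusted p of 0.0893. Grin2c and Grin3a were at −0.03 and 0.0020. Grin3b had at most 13 reads in any mouse and could not be measured precisely.

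In the AMPA class only Gria4, a subunit of fast receptors in interneurons, was called. Gria4 measured 98.8, 99.5, 104 and 106 CPM in CETPtg mice on vehicle and 93.5, 99.1, 107 and 109 on evacetrapib, against 85.4, 90.3, 92.5 and 94.4 in APPtg/CETPtg mice on vehicle and 87.8, 93.6, 95.6 and 107 on evacetrapib. In 4 APPtg/CETPtg mice Gria4 was below every CETPtg mouse. It fell from 102 ± 5.41 CPM (SD, n = 8) to 93.3 ± 6.52 (log2 fold change −0.13 ± 0.04 (SE), adjusted p = 0.0361). This call was lost without any 1 of mice A, D, F, S1, S4, S5 and S8 (adjusted p from 0.055 to 0.0717). Gria2, the subunit that blocks calcium entry, was at −0.08 ± 0.04 with an adjusted p of 0.151. Gria1 and Gria3 were at −0.05 and −0.04 and were not called.

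Among kainate subunits, Grik2 (GluK2), which forms the channel with most of its partners, was lower. It measured 66.0, 69.8, 74.2 and 76.1 CPM in CETPtg mice on vehicle and 67.6, 69.1, 70.9 and 71.0 on evacetrapib, against 53.6, 58.4, 62.1 and 66.4 in APPtg/CETPtg mice on vehicle and 60.7, 61.5, 63.3 and 64.4 on evacetrapib. A single pair of mice crossed: the highest APPtg/CETPtg mouse, S7, lay just above the lowest CETPtg mouse, S4. The log2 fold change was −0.20 ± 0.04 (SE), with an adjusted p of 0.0024. The other kainate subunits were not called: Grik1 and Grik4 lay at 0.04 and 0.03, Grik3 at −0.06 and the abundant Grik5 at −0.09 ± 0.04 (adjusted p = 0.168).

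Grid1, a delta receptor of the forebrain, measured −0.10 ± 0.04 and was not called (adjusted p = 0.137). Grid2ip, which encodes delphilin, measured 6.31 ± 0.729 CPM in CETPtg and 5.21 ± 0.914 in APPtg/CETPtg mice, at −0.28 ± 0.10 and an adjusted p of 0.0652.

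Among the metabotropic receptors, Grm5 was called. It encodes the main postsynaptic group I receptor of the forebrain. Grm5 measured 193, 194, 197 and 230.2 CPM in CETPtg mice on vehicle and 189, 198, 204 and 218 on evacetrapib, against 166, 182, 191 and 192 in APPtg/CETPtg mice on vehicle and 168, 174, 182 and 190.0 on evacetrapib. It fell from 203 ± 14.2 CPM (SD, n = 8) to 181 ± 10.3 (log2 fold change −0.17 ± 0.04 (SE), adjusted p = 0.0119), and 5 APPtg/CETPtg mice were below every CETPtg mouse. The inhibitory autoreceptors of groups II and III were spread around 0: Grm3 at 0.03, Grm2 at −0.06, Grm7 and Grm8 both at −0.01 and Grm4 at −0.14 ± 0.09, with adjusted p from 0.35 to 0.956.

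Of 15 GABA-A subunits tested 5 were called lower, where 8.38% of all genes were, with a median log2 fold change of −0.17 against 0.00459 over all genes. None of these 5 calls was kept when the trend of exon length and GC content, described further on, was removed. The beta subunits form the GABA binding site with the alpha subunits, and Gabrb1 and Gabrb2 were lower, by 13.3% and 10.8%. Gabrb1 measured 126, 128, 139 and 164 CPM in CETPtg mice on vehicle and 133, 133, 141 and 151 on evacetrapib, against 109.6, 119.8, 128 and 132 in APPtg/CETPtg mice on vehicle and 113, 119, 122 and 125 on evacetrapib. In 6 APPtg/CETPtg mice Gabrb1 was below every CETPtg mouse. It fell from 140 ± 12.7 CPM (SD, n = 8) to 121 ± 7.40 (log2 fold change −0.21 ± 0.05 (SE), adjusted p = 0.00892).

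Gabrb2 measured 133, 142, 147 and 166 CPM in CETPtg mice on vehicle and 133, 139, 146 and 159 on evacetrapib, against 126, 129, 135 and 141 in APPtg/CETPtg mice on vehicle and 116, 126, 129 and 138 on evacetrapib. In 5 APPtg/CETPtg mice Gabrb2 was below every CETPtg mouse. It fell from 146 ± 11.9 CPM (SD, n = 8) to 130 ± 7.79, a log2 fold change of −0.16 ± 0.05 (SE, adjusted p = 0.0217).

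Among alpha subunits, Gabra4, found in extrasynaptic receptors, measured −0.11 ± 0.05 (adjusted p = 0.0939), and Gabra3 and Gabra5 both measured −0.04. The alpha2 subunit Gabra2 was at −0.27, but with an SE of 0.16.

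Gabrg3, a gamma subunit, was lower. It measured 27.6, 30.4, 32.5 and 35.2 CPM in CETPtg mice on vehicle and 32.3, 32.9, 35.8 and 36.1 on evacetrapib. In APPtg/CETPtg mice it measured 25.7, 26.2, 28.4 and 29.6 CPM on vehicle and 25.7, 27.2, 29.1 and 29.8 on evacetrapib. Under evacetrapib the genotypes did not overlap, which was also so for Grin2b, Grik2 and Gabrb1. The share of all genes without overlap within a treatment was not computed. Under vehicle the lowest CETPtg mouse, S4, lay within the APPtg/CETPtg range. The log2 fold change over all mice was −0.24 ± 0.05 (SE), with an adjusted p of 0.00285.

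Gabrg1, another gamma subunit, measured −0.24 ± 0.09 (adjusted p = 0.0644). Gabrd lay above 0, at 78.6 ± 5.78 CPM without and 84.7 ± 9.86 with the APP transgene, and did not pass the test (log2 fold change 0.11 ± 0.06 (SE), adjusted p = 0.263). The most negative fitted changes, −1.12 for Gabre and −0.84 for Gabrq, carried SEs of 0.39 and 0.32 and were not called (adjusted p = 0.0557 and 0.0785).

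Promoter windows of 4 members are printed because they belong to the genes with the next smallest p after Grin2b, Grik2 and Gabrg3, and to a called gene, Gabrb1, with its neighbour on the opposite strand, Gabra4, which was not called. Each window runs from 250 bases before to 50 bases after the RefSeq start (GRCm38.p6), 5′ to 3′ on the gene's strand. The windows are chr10:49788705-49789004 on the minus strand for Grik2, chr7:57387166-57387465 on the minus strand for Gabrg3, chr5:71657671-71657970 on the plus strand for Gabrb1 and chr5:71658259-71658558 on the minus strand for Gabra4. Capitals mark matches, on either strand, to 4 motifs. These are the GC box of Sp1-like factors, spelled GGGCGG, the site of nuclear factor Y, spelled CCAAT, the TATA box of some core promoters, spelled TATAAA, and the cyclic AMP response element, spelled TGACGTCA.
Grik2: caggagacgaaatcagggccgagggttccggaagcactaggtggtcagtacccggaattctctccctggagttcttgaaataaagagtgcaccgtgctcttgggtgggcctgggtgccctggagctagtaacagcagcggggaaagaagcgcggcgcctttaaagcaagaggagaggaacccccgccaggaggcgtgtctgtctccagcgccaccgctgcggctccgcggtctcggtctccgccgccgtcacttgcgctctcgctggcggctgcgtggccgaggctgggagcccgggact
Gabrg3: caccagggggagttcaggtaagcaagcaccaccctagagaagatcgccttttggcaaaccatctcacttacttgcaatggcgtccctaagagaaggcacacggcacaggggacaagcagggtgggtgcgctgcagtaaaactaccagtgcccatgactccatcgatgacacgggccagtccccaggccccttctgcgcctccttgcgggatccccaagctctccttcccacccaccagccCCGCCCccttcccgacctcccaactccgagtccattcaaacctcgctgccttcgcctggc
Gabrb1: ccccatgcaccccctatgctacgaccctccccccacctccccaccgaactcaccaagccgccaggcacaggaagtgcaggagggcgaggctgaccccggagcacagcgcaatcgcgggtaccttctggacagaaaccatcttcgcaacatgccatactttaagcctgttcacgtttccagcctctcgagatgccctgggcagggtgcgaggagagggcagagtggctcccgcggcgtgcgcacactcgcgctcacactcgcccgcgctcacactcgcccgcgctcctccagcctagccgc
Gabra4: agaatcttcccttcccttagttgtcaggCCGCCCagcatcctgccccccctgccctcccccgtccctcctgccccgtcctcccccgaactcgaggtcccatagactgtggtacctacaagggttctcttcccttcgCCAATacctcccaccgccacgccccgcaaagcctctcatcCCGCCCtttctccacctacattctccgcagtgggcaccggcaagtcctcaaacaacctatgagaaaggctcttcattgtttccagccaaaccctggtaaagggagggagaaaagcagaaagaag

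The Grik2 and Gabrb1 windows held none of the 4 motifs, Gabrg3 held 1 GC box on the opposite strand starting at −10, and Gabra4 held 2 GC boxes, at −222 and −74, and a CCAAT box at −114. No marked motif overlapped another. Over all 32851 promoter windows of this length, 35.7% held a GC box, 37.4% a CCAAT box, 13.6% a TATA box and 1.79% the cyclic AMP response element. The shown windows had a GC content of 64.7% for Grik2, 61% for Gabrg3, 66% for Gabrb1 and 58.7% for Gabra4, against a median of 52.7% over all windows. Of the 47 members 32 had a window. The starts of Gabrb1 and Gabra4 lie 387 bases apart with their transcripts pointing across each other, and 46 annotated exon bases lie on both strands, a share of 0.756% of the Gabra4 exons and 0.332% of the Gabrb1 exons.

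The members called had long exons. Their exon length ran from 6305 to 24842 bases (median 11934), with 42.9% GC in the median, whereas the 31 members tested and not called had a median of 5962 bases and 49.2% GC. Over all genes, those with exons over 6000 bases and under 42% GC had a median log2 fold change of −0.13 between genotypes, and 37% of them were called lower. In the class of over 6000 bases and 42 to 50% GC, 24.4% of all genes were called lower, and all 11 called members fell in these 2 classes. The fold change thus moved with exon length and GC content over the whole table, in the same direction as in the members.

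When that trend was removed from the counts of each mouse, 2 members were called lower, where 2.96% of all genes were, and 2 were called higher, where 5.71% of all genes were. Grin2b remained lower at −0.19 (adjusted p = 0.031), and Grik5 became a lower call at −0.13 (adjusted p = 0.0319). Gria2 and Gria3, which had been at −0.08 and −0.04, turned to 0.17 and 0.13 and were called higher (adjusted p = 0.00176 and 0.0431). Of the 11 original calls, Grin2b was the only one kept: Grik2 moved to 0.02, Gabrb1 to −0.03, Gabrg3 to −0.11, Grin2a to −0.05 and Grm5 to −0.04. The median over the 42 members moved to −0.04.

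**Figure D3:**
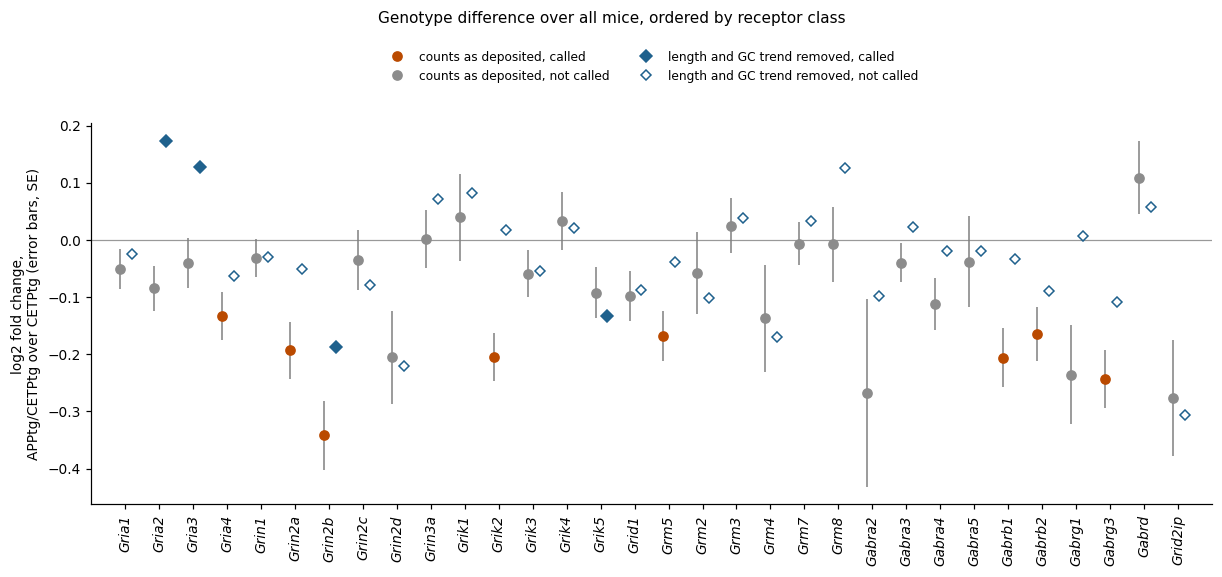
Log2 fold change of APPtg/CETPtg over CETPtg mice for 32 of the 42 members tested (circles, error bars SE) and the same with the trend of exon length and GC content removed (diamonds), in order of receptor class; filled orange circles and filled blue diamonds passed the test. Among the 10 members not plotted are Gabre, Gabrq, Gabrr2, Grin3b and Grin1os, which had large errors. Grin2b is below 0 and called in both fits, and Gria2 and Gria3 cross from below to above 0.

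**Figure D4:**
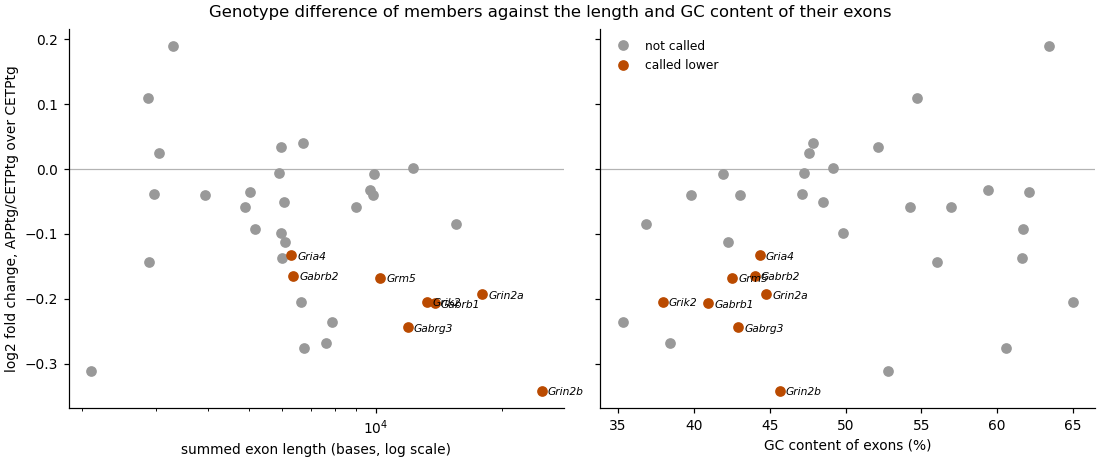
Log2 fold change of APPtg/CETPtg over CETPtg mice against exon length (left, log scale) and exon GC content (right) for 35 of the 42 members tested, with the 8 called members plotted in orange and named. Among the 7 members not plotted are Gabre and Gabrq, which lie off the scale. The called members have over 6000 exon bases and under 50% GC.

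Within each treatment, with 4 mice per group, fewer members were called than over all mice. On vehicle, Grin2b (log2 fold change −0.41 ± 0.08 (SE), adjusted p = 0.00549) and Grik2 (−0.25 ± 0.06, adjusted p = 0.0121) were lower in APPtg/CETPtg, 2 of 42 members where 4.42% of all genes tested were called lower. On evacetrapib, 2 of 42 members were called lower, where 1.71% of all genes were, among them Gabrg3 (−0.30 ± 0.07, adjusted p = 0.0346). The genes called were not the same under the treatments, but the effect of genotype was not shown to differ between them. Grin2b measured −0.27 ± 0.08 on evacetrapib (adjusted p = 0.0842) and Gabrg3 −0.19 ± 0.07 on vehicle (adjusted p = 0.0988), and the test of the difference gave an adjusted p of 0.815 for Grin2b, 0.832 for Grik2 and 0.851 for Gabrg3. The Gabrg3 call on evacetrapib was lost without mouse A, C, E, F or G (adjusted p from 0.0547 to 0.121). With the trend of exon length and GC content removed, none of these 3 calls within a treatment was kept. On vehicle, the quasi-likelihood test of that fit instead called Gria2 higher (0.20, adjusted p = 0.0126) and Grin2d lower (−0.34, adjusted p = 0.0425).

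No member was called for evacetrapib. Over all mice, 0 of 42 members passed the quasi-likelihood test of edgeR, where 0.0107% of all genes did, 2 members had an unadjusted p under 0.05, and DESeq2 and limma-voom each called 0. The 42 members had a median log2 fold change of −0.00417, with 19 above and 23 below 0. Among the 36 members with a mean of at least 10 CPM, the SE had a median of 0.05, and the fitted changes ran from −0.11 for Grik5 to 0.21 for Gabra2.

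The 2 smallest p-values were those of Grik5 and Grin2a. Grik5 measured 334 ± 19.2 CPM (SD, n = 8) on vehicle and 310 ± 26.1 on evacetrapib, a log2 fold change of −0.11 ± 0.04 (SE) with an adjusted p of 0.57. The groups overlapped, from 295 to 353 CPM on vehicle and from 278 to 353 on evacetrapib. Grin2a measured 153 ± 12.8 CPM on vehicle and 164 ± 20.2 on evacetrapib (log2 fold change 0.11 ± 0.05 (SE), adjusted p = 0.622). Mouse A, at 208 CPM, stood above the other evacetrapib mice. Gabrr2, Grm2 and Gria2 followed, at −0.41 ± 0.21, 0.13 ± 0.07 and −0.07 ± 0.04, with adjusted p of 0.658, 0.697 and 0.697.

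Within genotypes the same held. In CETPtg mice 0 of 42 members were called, where 0% of all genes were, and 0 members had an unadjusted p under 0.05 in edgeR. In APPtg/CETPtg mice 0 of 42 were called, where 0.043% of all genes were, and 1 member had an unadjusted p under 0.05: Grm2, the presynaptic group II receptor, which measured 57.6 ± 6.93 CPM (SD, n = 4) on vehicle and 68.3 ± 8.34 on evacetrapib (adjusted p = 0.463).

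No difference in the effect of evacetrapib between genotypes was called for any member by edgeR: 0 of 42 passed, where 0% of all genes were, and 1 had an unadjusted p under 0.05. That member was Grik1, the GluK1 subunit of interneurons. It measured 12.5, 13.6, 13.6 and 15.9 CPM in CETPtg mice on vehicle and 11.1, 11.4, 13.0 and 13.7 on evacetrapib, and 11.7, 12.5, 13.0 and 13.5 in APPtg/CETPtg mice on vehicle and 12.6, 13.4, 15.5 and 15.7 on evacetrapib. The treated mice were lower in one genotype and higher in the other, with overlap in both, and the difference of effects was 0.35 ± 0.13 (SE, adjusted p = 0.703). Gria1 (0.13 ± 0.06) and Grm4 (0.32 ± 0.18) were among the next, with adjusted p of 0.726 and 0.74.

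Ratios of subunits that replace each other in a receptor need no library size. They were taken from the counts as deposited, and the trend of exon length and GC content was not removed from them. Their p-values were adjusted over 8 comparisons. The log2 ratio of Grin2a to Grin2b averaged −1.20 ± 0.09 (SD, n = 8) in CETPtg and −1.05 ± 0.14 in APPtg/CETPtg mice, a difference of 0.15 (exact permutation test within treatments, two-sided, p = 0.0318, adjusted p = 0.127). In 5 of 8 APPtg/CETPtg mice the ratio was above every CETPtg mouse. The difference did not pass the adjusted threshold.

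The ratio of Gria1 to Gria2, which bears on the calcium permeability of AMPA receptors, differed between evacetrapib and vehicle by 0.10 on the log2 scale (exact permutation p = 0.0535, adjusted p = 0.143), with −0.32 ± 0.10 (SD, n = 8) on evacetrapib and −0.42 ± 0.08 on vehicle. It was 0.03 higher in APPtg/CETPtg than in CETPtg mice (adjusted p = 0.662 by the exact permutation test). With the trend of exon length and GC content removed, the genotype fold changes were −0.02 for Gria1 and 0.17 for Gria2, so the direction depends on that step. With 4900 labelings the smallest p these tests can give is 0.000408.

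Gabra2 stood apart in its spread. Its CPM in CETPtg mice on vehicle were 42.4, 44.6, 71.5 and 72.9, and on evacetrapib 47.1, 47.7, 65.4 and 82.9. In APPtg/CETPtg mice they were 35.0, 37.9, 39.3 and 62.0 on vehicle and 39.8, 43.6, 68.5 and 70.7 on evacetrapib. Each group thus held mice at a lower and at a higher level: 9 mice lay between 35.0 and 47.7 CPM, 7 between 62.0 and 82.9, and no mouse in the gap of 14.3 CPM. The next largest gap, within the higher range, was 10.01 CPM. The SD of log2 CPM within groups was 0.41, which ranked 56 among 10263 genes with a mean of at least 10 CPM, and of its neighbours on chromosome 5 Gabrg1 had an SD of 0.20, at percentile 96.0 of those genes, Gabra4 0.10 and Gabrb1 0.12.

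The members with the largest spread within groups were Gabre (SD of log2 CPM 0.96), Grin3b (0.83), Gabrq (0.81), Grin1os (0.66) and Gabrr2 (0.42), all under 5 CPM. Gabrq, the theta subunit of monoaminergic and hypothalamic neurons, measured 3.03, 5.38, 9.28 and 12.1 CPM in CETPtg mice on vehicle and 2.16, 3.45, 6.05 and 7.05 on evacetrapib. In APPtg/CETPtg mice it measured 2.39, 2.54, 2.73 and 7.46 CPM on vehicle and 1.30, 2.42, 2.72 and 5.29 on evacetrapib. Values spread widely within every group, and the highest of all were those of S1 and S3. Gabre, the epsilon subunit and its neighbour on the X chromosome, was high in the same 2 mice, at 4.50 and 5.89 CPM against 0.528 to 2.97 in all other mice.

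These 5 members were set against 8 lists of regional marker genes within groups, 40 pairs in all, which share the same mice and libraries. After adjustment 6 pairs passed by Pearson's r and 3 by Spearman's rho. Gabrq varied together with the 4 tested genes of the midbrain and hindbrain list (r = 0.89, adjusted p = 0.00707, rho = 0.88, adjusted p = 0.0084, permutation tests over 16 mice) and with the 6 of the hypothalamus list (r = 0.86, adjusted p = 0.00707, rho = 0.84, adjusted p = 0.0084). Gabre did so with the midbrain and hindbrain list (r = 0.87, adjusted p = 0.00707, rho = 0.86, adjusted p = 0.0084, permutation). Without the 2 mice farthest from the median of the list score r was 0.84, 0.83 and 0.81. The remaining 3 pairs passed by r alone: Gabre with the thalamus (r = 0.69) and hypothalamus lists (r = 0.77) and Grin3b with the cerebral cortex list (r = −0.71), with adjusted p of 0.0405, 0.0405 and 0.0456 by permutation. The midbrain and hindbrain genes summed to 12.3 to 23.3 CPM among CETPtg and 12.9 to 22.4 CPM among APPtg/CETPtg mice. The part of the dissection in the spread of these members was not tested.

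**Figure D5:**
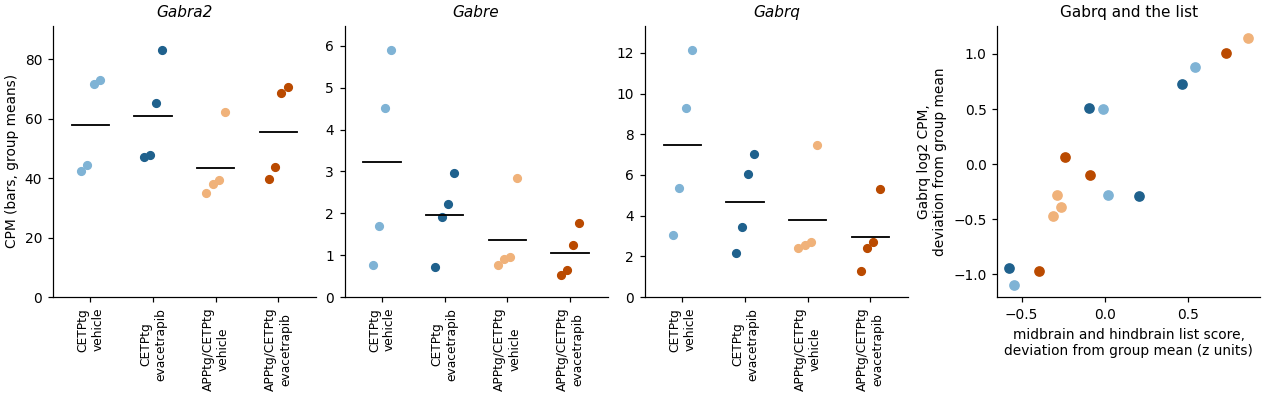
CPM of Gabra2, Gabre and Gabrq in each mouse by group (points, with group means as bars), and the deviation of Gabrq log2 CPM from its group mean against that of the midbrain and hindbrain list score (right, mean z-score). Gabra2 falls into a lower and a higher range in every group, and Gabrq is highest in the mice with the highest list score.

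Of the genes that encode no subunit, Grin1os had 3 to 19 reads per mouse and shares 1307 exon bases with Grin1 on the opposite strand, 45.2% of its exons. Since the strand setting of the counting is not given in the sources used here, its reads and those of Grin1 may not be separable. A similar limit holds for Grin3b, of whose exons 32.1% overlap Tmem259 on the opposite strand.

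Partners of the receptors were counted from lists of known genes, and their counts stand against the 8.38% of all genes called lower and the 9.35% called higher between genotypes. All partner values are from the counts as deposited. Whether the partner calls are kept with the trend of exon length and GC content removed was not examined. Both kainate auxiliary subunits were lower in APPtg/CETPtg mice: Neto2 fell from 71.9 ± 6.70 CPM (SD, n = 8) to 59.8 ± 4.04 (log2 fold change −0.27 ± 0.05 (SE), adjusted p = 0.0017) and Neto1 from 133 ± 8.30 to 120 ± 3.17. Among partners of the delta receptors, the neurexins Nrxn2 (−0.16 ± 0.04) and Nrxn3 (−0.26 ± 0.04) were lower, and the cerebellins Cbln1, Cbln2 and Cbln4 were not called. The list of 16 AMPA auxiliary subunits was mixed, with Frrs1l (−0.28 ± 0.05) and Cacng4 (−0.18 ± 0.04) lower and Cnih2 (0.15 ± 0.04) and Olfm1 (0.16 ± 0.04) higher.

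Among genes for GABA-A assembly and anchoring, Nlgn2 and Rdx were lower and Gabarap was higher, while Gphn, the gephyrin scaffold, measured −0.03 ± 0.04 and was not called. Slc1a2, the main astrocytic glutamate transporter, was called as 1 of 11 glutamate transporter and enzyme genes, a share near that of all genes called lower, falling from 1822 ± 182 to 1428 ± 161 CPM (SD, n = 8; log2 fold change −0.35 ± 0.05 (SE), adjusted p = 0.000275). Aldh5a1 was lower among the genes of GABA transport and breakdown, and the GABA-synthesizing enzymes Gad1 and Gad2 were at −0.02 and −0.09 and not called. Gpr158 was called as 1 of 8 partners of metabotropic receptors, at −0.15 ± 0.04, and 0 of 9 GABA-B and glycine receptor genes were. For evacetrapib over all mice, 0 genes of these 8 lists were called by edgeR.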

How the data were processed

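RNA of bulk brain was sequenced from each of 16 mice with a directional library kit. Per the submitters' processing notes and the study's methods, the authors trimmed reads with Trimmomatic 0.39, aligned them with STAR 2.7.8a to the mouse genome mm10 (GRCm38), marked duplicates with Picard 2.0.1 and deposited raw read counts per gene from HTSeq. The strand setting of the counting is not given in the sources used here.

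All 16 count columns were used, each mapped to its mouse by its label. Genes that reached 10 counts in 4 or more mice were tested, with trimmed-mean library factors, in edgeR 4.0.16 (R 4.3.3) by the quasi-likelihood test. One model with a mean per group gave the comparisons within treatments and within genotypes and the difference of the evacetrapib effects, and a model with genotype and treatment gave those over all mice. A gene was called at a Benjamini-Hochberg adjusted p, over all genes tested, up to 0.05 and a difference of 5% or more. CPM (counts scaled to a library of 1000000) and their SDs were computed from the same library sizes. The differences of log2 ratios, with 0.5 added to each count, were tested by two-sided exact permutation within strata, and relations between members and lists by 100000 permutations, as permutation tests of deviations from group means. Python 3.11.15 with scipy 1.17.1 was used for these. The scripts were tested on simulated data. Total counts per mouse of 21391335 to 55453789 set the counting precision, and p-values measure the spread between the mice sequenced.

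The alternatives were DESeq2 (1.42.0) size factors and its Wald test, limma-voom (limma 3.58.1), other filters and thresholds, a draw to the smallest total, omission of each mouse, and removal of a smooth trend of each mouse's counts with exon length and GC content. The trends of GC content alone and of length alone and the block on the numbers of a header line were chosen after seeing the data. The members and lists were chosen with earlier results of these data known. Named are members called in any comparison, the highest level of each class, the 5 smallest p for genotype over all mice, evacetrapib over all mice and their difference, the 5 most variable members, members of the ratios, genes encoding no subunit and members that failed the filter. Promoter sequences are from RefSeq (GRCm38.p6). Results for some genes that these rules name are not reported here.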

Additional observations from a re-analysis of the deposited data

Results flagged for a closer look

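In 12 of 156 sets of 4 mice (37 members and 2 ratios in each of 4 groups), or 7.69%, a single mouse lay far from the other 3 of its group, with a gap above the critical value of Dixon's test. Chance gives about 1 in 20.

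Mouse S7 of APPtg/CETPtg on vehicle was high in 3 GABA-A subunits. Gabra2 measured 62.0 CPM there against 35.0 to 39.3 in the other mice of the group, Gabre 2.84 against 0.755 to 0.953 and Gabrq 7.46 against 2.39 to 2.73. In the same group Gabra4 was 92.4 CPM in mouse S8 against 85.7 to 86.3. In APPtg/CETPtg mice on evacetrapib, Gabrr2 was 0.922 CPM in mouse G against 0.415 to 0.487, and mouse E had 73.3 CPM of Grm3 against 82.9 to 84.6 and 17.9 of Grm8 against 16.04 to 16.3.

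Mouse D of CETPtg on evacetrapib had 84.5 CPM of Grid1 against 91.9 to 92.5. In the same group mouse A had 208 CPM of Grin2a against 161 to 167. In CETPtg mice on vehicle, mouse S1 had 670.0 CPM of Gria2 against 608 to 614 and 230.2 of Grm5 against 193 to 197, and mouse S3 had 195 CPM of Grik3 against 178 to 180.4.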

How the results depend on the processing

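Over all mice, 11 members were called between genotypes, and Grin2b was called under every alternative tried. With the trends of exon length and GC content removed 4 members were called, 2 of them lower. With GC content alone 6 were called and with length alone 1, all lower. Of all genes tested, 2.96% were called lower with both trends removed, 5.29% with GC content and 3.72% with length, against 8.38% with neither. The median over members moved to -0.04 with both and -0.07 with length alone. An adjusted p of at most 0.1 gave 18. Leaving out 1 mouse gave 8 to 15. On vehicle, where 2 members were called, the DESeq2 Wald test called 5, no filter on low counts 6, removal of the length trend 0 and the threshold of 0.1 gave 6. Removal of both trends called Gria2 and Grin2d there in place of Grin2b and Grik2. Leaving out 1 mouse gave 2 to 6, with 4 without mouse A and 6 without S4, S6 or S7. On evacetrapib, where 2 were called, the DESeq2 Wald test and no filter both called 5, the counts drawn to the smallest total 1, the fit to the 8 mice compared 1, removal of either trend or both 0, and the threshold of 0.1 gave 4. Leaving out 1 mouse gave 0 to 4, with 0 without mouse A, E or F, 1 without C, G or H and 4 without S6. For the threshold of 0.1, the omission of mice and the settings within a treatment, the share of all genes called is not given here. Those counts thus do not show whether the members or the whole set of genes changed. The causes were not tested.

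Grik2 changed sign with both trends removed, to 0.017 over all mice and 0.011 on vehicle. The log2 ratio of Grin2a to Grin2b between genotypes ranged from 0.13 to 0.19 on leaving out 1 mouse, and passed without mouse G (adjusted p = 0.0359, exact permutation). Its difference between treatments ranged from -0.0243 to 0.0399. For evacetrapib and for the difference of its effects, 0 members were called under any alternative tried.

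The labels give no replicate numbers, but a header line of the count table holds a number for each mouse. Deviations of same-numbered mice correlated between -0.203 and 0.173. They were not compared with those of differently numbered mice, so whether the number pairs the mice was not tested. With that number as a replicate block 13 members were called over all mice, all lower, where 8.22% of all genes tested were called lower. On evacetrapib 1 member was called. Depth limits Grin3b, Grin1os, Gabrr2 and the 5 members not tested.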
